A study of Mus musculus with 4 samples.

Results

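The receptors of the CD28 family and the inhibitory receptors that are grouped with them as immune checkpoints were examined in cultured mouse Th17 and Th1 cells that had been sorted by CD30, a receptor of the TNF receptor family. The set held 8 genes, Ctla4, Cd28, Icos, Pdcd1, Btla, Lag3, Havcr2 and Tigit, taken by name, with earlier results of these data known. Every probe set annotated to a current or older symbol of these genes was taken, which gave 10 probe sets for 7 of the 8 genes, among 18193 genes with a named probe set. Tigit was not analysed here, because none of the 45037 probe sets used was annotated to it. Cd28 had 2 probe sets, Icos 3, and each of the other named members 1.

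The 4 populations, each measured on 1 Affymetrix expression array covering the mouse genome, were CD30high Th17, CD30low Th17, CD30high Th1 and CD30low Th1 cells. All were CD4 T cells of the spleen with low CD44, cultured for 6 days. Th17 cultures received the cytokines IL-23, IL-1beta and IL-6 with antibodies that block IFN-gamma and IL-4. Th1 cultures received IL-12, a culture supernatant as source of IL-2, and an antibody that blocks IL-4. By the methods the T cells carried a transgenic receptor for an ovalbumin peptide and were stimulated with that peptide on irradiated splenocytes depleted of T cells. The methods name 1 receptor strain on a BALB/c and 1 on a C57BL/6 background, with 1 range of ages for all mice of the study, and which strain these arrays came from is not given in the sources used here. The labels give CD62Lhi starting cells for both CD30high arrays and CD62Llow starting cells for both CD30low arrays, whereas the methods describe CD62L-high naive cells throughout. If the labels hold, the CD30 sort and the starting cells cannot be told apart. Tnfrsf8, the gene of CD30 itself, had signals of 132 in CD30high Th17, 34.9 in CD30low Th17, 51.1 in CD30high Th1 and 13.3 in CD30low Th1 cells, higher in the CD30high array of each pair but too dim for a call.

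No population had a second array, so no difference below has a replicate error or a p-value. Calls therefore rest on a fold rule. Signals below 100 were set to 100, and a gene was called where the ratio then reached 2-fold with 300 or more on the brighter array. Signals are linear array units, and no gene's signal was set against that of another gene, though sums over marker lists are given per array. The scatter between probe sets of the same gene was the only technical yardstick. Over 2928 genes its SD, per probe set and on the log2 ratio scale, was 0.20 for CD30high over CD30low in Th17 cells, 0.23 for the same ratio in Th1 cells, and 0.31 and 0.29 for Th17 over Th1 among CD30high and CD30low cells.

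T cells need a signal through CD28 beside that of the antigen receptor. CD28 binds CD80 and CD86 on antigen-presenting cells, and CTLA-4, which cycles between vesicles and the surface of activated T cells, binds the same ligands more tightly and restrains activation. ICOS is an inducible relative of CD28 that is known for its role in helper T cell function. PD-1 (Pdcd1), BTLA, LAG-3, TIM-3 (Havcr2) and TIGIT are inhibitory receptors of activated T cells, with PD-L1 and PD-L2, HVEM, MHC class II, several proteins including galectin-9, and CD155 among their known ligands.

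Sequence was at hand as promoter windows of RefSeq on GRCm38.p6, from 250 bases before to 50 bases after an annotated start, for 5 members (Ctla4, Pdcd1, Btla, Havcr2 and Tigit). The windows of Ctla4, on the plus strand at chr1:60908775-60909074, and of Btla, on the plus strand at chr16:45224087-45224386, are shown 5′ to 3′ because these were the members that passed the fold rule in a comparison. Capitals mark matches to GGAAA, the core of NFAT sites, or to TATAAA, on either strand.
Ctla4: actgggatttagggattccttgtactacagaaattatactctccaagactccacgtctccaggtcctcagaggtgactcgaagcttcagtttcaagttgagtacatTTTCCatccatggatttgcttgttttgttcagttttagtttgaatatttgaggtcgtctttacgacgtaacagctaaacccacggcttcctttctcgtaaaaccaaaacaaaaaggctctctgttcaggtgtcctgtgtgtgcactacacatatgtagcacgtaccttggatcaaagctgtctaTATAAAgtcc
Btla: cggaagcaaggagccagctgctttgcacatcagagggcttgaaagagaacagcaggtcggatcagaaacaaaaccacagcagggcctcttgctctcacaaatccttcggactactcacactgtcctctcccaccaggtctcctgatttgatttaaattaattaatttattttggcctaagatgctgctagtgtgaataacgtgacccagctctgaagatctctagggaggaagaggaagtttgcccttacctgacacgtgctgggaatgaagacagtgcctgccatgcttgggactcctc
The Ctla4 window held 1 match to GGAAA, on the minus strand at position -144, and 1 match to TATAAA at position 40, counted from 0 at the annotated start, and neither overlapped another match. The Btla window held none. TGANTCA, the AP-1 site, was also searched on both strands and was found in neither. GGAAA occurred in 61.3%, TGANTCA in 7.81% and TATAAA in 13.6% of all 32851 windows, so a match to GGAAA was common. Pdcd1 had 2 matches to GGAAA, at positions -28 and -23, Tigit had 2 at -110 and -13, and Havcr2 had none. Havcr2 had the only match to TGANTCA among these windows, at position -200. A match is a run of letters and not a measured binding site.

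Ctla4 was the 1 member whose difference between the CD30 sorts passed the fold rule, and it did so in Th17 cells. Its signals (probe set 1419334_at) were 8241 in CD30high Th17, 3523 in CD30low Th17, 11022 in CD30high Th1 and 10220 in CD30low Th1 cells. The CD30low Th17 array stood below the other 3. Ctla4 was thus 2.34-fold higher in CD30high than in CD30low Th17 cells, a log2 ratio of 1.23. In Th1 cells the same ratio was 1.08-fold, or 0.11 on the log2 scale, which is below the scatter of 0.23 between probe sets. The difference between the log2 ratios, Th17 minus Th1, was 1.12. The corresponding scatter for such a difference is 0.30, but it holds no difference between cultures or sorts, so the difference was not tested. In bulk RNA, fewer cells with a transcript and less transcript per cell cannot be told apart.

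Cd28, the founding costimulatory receptor, had the same order of arrays with a smaller range. The brighter probe set (1417597_at) had signals of 15882 in CD30high Th17, 9674 in CD30low Th17, 16523 in CD30high Th1 and 16377 in CD30low Th1 cells. The second probe set (1437025_at) had 12813, 8432, 13299 and 13246 in the same order. Both thus showed 3 arrays at nearly the same level and a lower CD30low Th17 array. The CD30high over CD30low ratio in Th17 cells was 1.64-fold and 1.52-fold by the 2 probe sets, short of the 2-fold limit. In Th1 cells it was 1.01-fold and 1.00-fold. Within Th17 cells the log2 ratio of Ctla4 exceeded that of Cd28 by 0.51, so that the signal of the inhibitory receptor differed more between the CD30 sorts than that of its costimulatory counterpart. In Th1 cells the excess was 0.10.

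Icos was bright on every array and varied least among the 3 members with at least 3000 on every array, with a span by its brightest probe set of 1.32-fold over the arrays, against 1.71-fold for Cd28 and 3.13-fold for Ctla4. Its brightest probe set (1436598_at) had signals of 13807 in CD30high Th17, 10427 in CD30low Th17, 12158 in CD30high Th1 and 10828 in CD30low Th1 cells. Probe set 1421930_at had 9390, 6521, 9611 and 6685, and probe set 1421931_at had 4143, 2637, 2774 and 2490, in the same order of arrays. The ratio of CD30high to CD30low cells was above 1 for all 3 in both lineages, at 1.32-fold, 1.44-fold and 1.57-fold in Th17 cells and at 1.12-fold, 1.44-fold and 1.11-fold in Th1 cells. None of these ratios passed the fold rule. The 3 probe sets thus gave one direction but differed in whether the lineages had similar ratios.

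**Figure D1:**
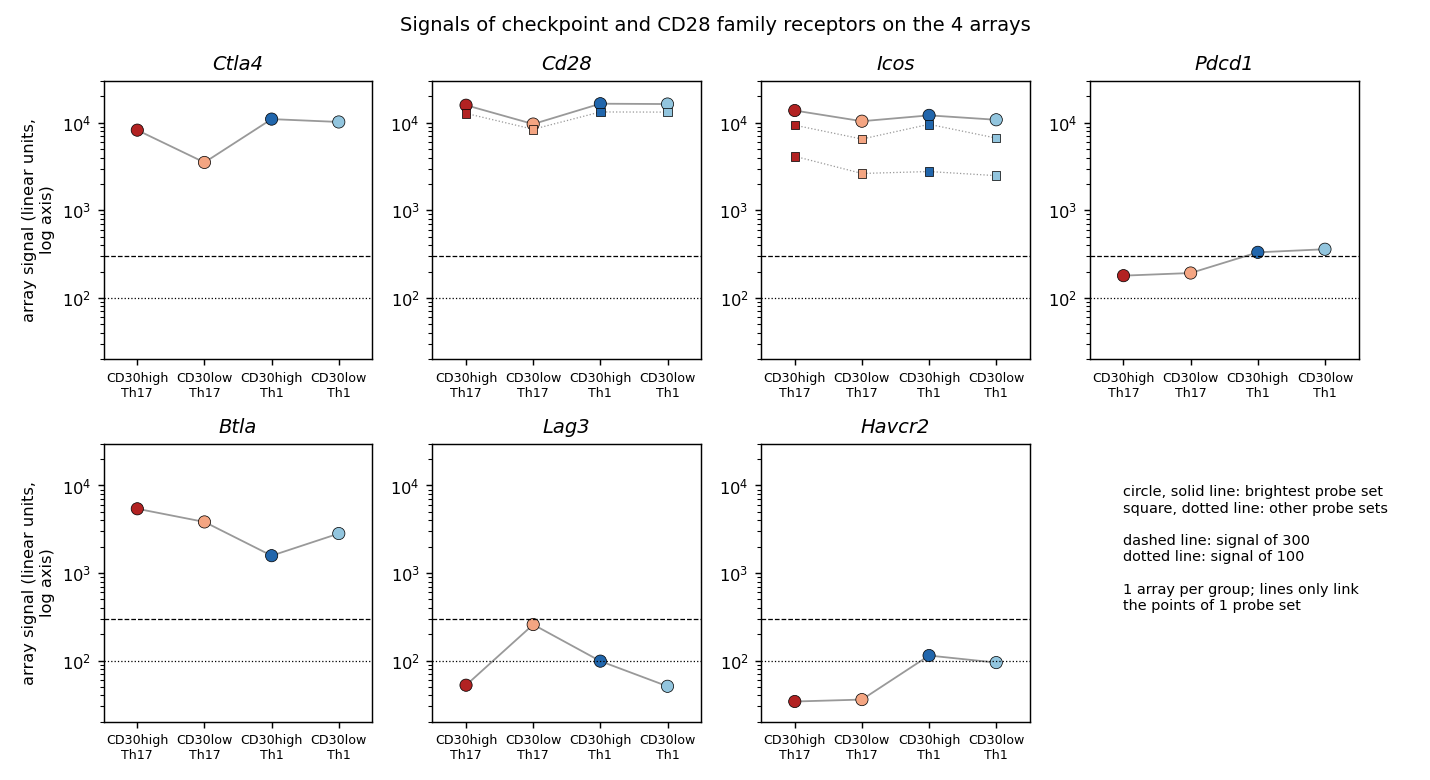
Signal of each probe set of the 7 members on the 4 arrays (y axis, linear array units on a log axis; x axis, population, 1 array each). In the CD30low Th17 array Ctla4 was at 3523 and Cd28 at 9674, below the other 3 arrays, whereas Btla was lowest in CD30high Th1 cells at 1578 and Lag3 was above 100 only in CD30low Th17 cells, at 258.

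The genes of these 3 receptors lie next to each other on mouse chromosome 1 in the order Cd28, Ctla4, Icos. The annotation placed 6 genes between Cd28 and Ctla4 and 2 between Ctla4 and Icos, of which 0 were protein-coding. The log2 ratios of CD30high over CD30low in Th17 cells along this row were 0.72, 1.23 and 0.41 by the brightest probe sets. In Th1 cells they were 0.01, 0.11 and 0.17, each below the scatter of 0.23 between probe sets, so nothing is drawn from their sign. Another Icos probe set gave 0.52 there. In Th17 cells the neighbours had the same sign, and Ctla4 had the largest ratio. The order of Cd28 and Icos depended on the probe set, since the other Cd28 probe set gave 0.60 and the other Icos ones 0.53 and 0.65. Pdcd1, also on chromosome 1 but outside this row, had a log2 ratio of -0.10 in Th17 and -0.12 in Th1 cells.

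Btla, the receptor for HVEM, was the member in which the CD30 ratio had opposite signs in the lineages with all 4 signals above 100. Its signals (1455656_at) were 5419 in CD30high Th17, 3835 in CD30low Th17, 1578 in CD30high Th1 and 2826 in CD30low Th1 cells. Both Th17 arrays were brighter than both Th1 arrays. CD30high cells had 1.41-fold the signal of CD30low cells in the Th17 pair (log2 ratio 0.50). In the Th1 pair CD30low cells had 1.79-fold the signal of CD30high cells (log2 ratio -0.84). Neither ratio passed the fold rule, but their difference on the log2 scale, Th17 minus Th1, was 1.34, the largest positive one among the members.

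Of the 4 members with a signal of at least 300 in a Th17 array, 1 was called higher and 0 lower in CD30high cells, and all 4 ratios were above 1. Among all 7786 genes at this signal, 3.94% were called higher and 3.66% lower. The median log2 ratio of the 4 members was 0.61, against 0.01 for all genes. In Th1 cells 0 of 5 members were called, with 3 ratios above 1 and 2 below. There 0.794% of 7813 genes were called higher and 0.486% lower, and the medians were 0.01 for the members and -0.03 for all genes. With fewer than 1% of genes called in each direction, a count of 0 among 5 members says nothing particular about them.

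**Figure D2:**
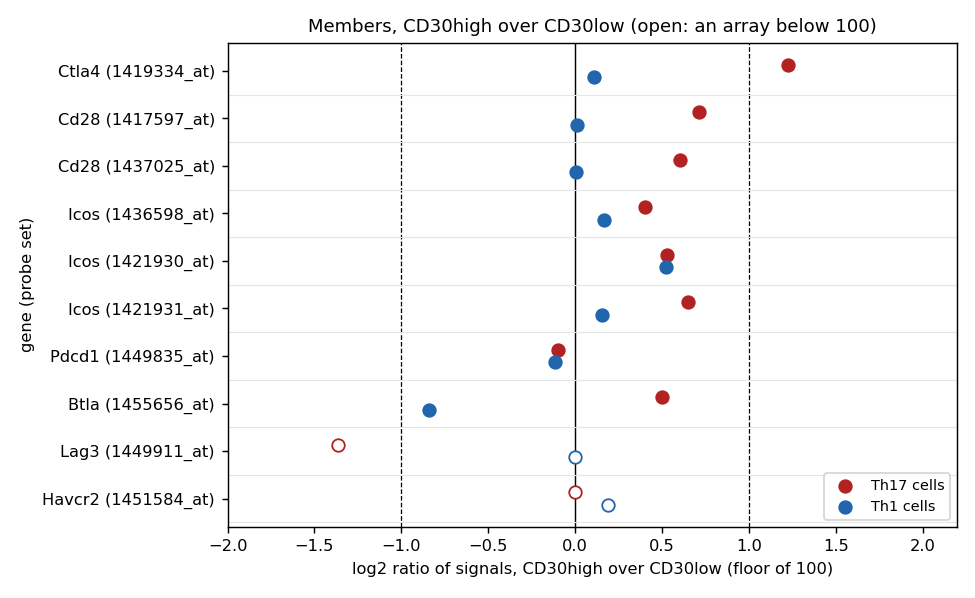
The x axis gives the log2 signal ratio between CD30high and CD30low cells, for each probe set of the members (y axis) in Th17 and Th1 cells, 1 array per population. Dashed lines mark 2-fold and open circles a ratio in which an array was below 100. Ctla4 in Th17 cells, at 1.23, is the only filled point beyond a dashed line, and Btla lies at 0.50 in Th17 and -0.84 in Th1 cells.

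The remaining members were dim. Pdcd1 (1449835_at) had signals of 179 in CD30high Th17, 192 in CD30low Th17, 331 in CD30high Th1 and 359 in CD30low Th1 cells. Its signal followed the lineage and hardly differed between the CD30 sorts, by 1.07-fold in Th17 and 1.08-fold in Th1 cells. Lag3 (1449911_at) had 52.3, 258, 98.4 and 50.8 in the same order of arrays. CD30low Th17 cells alone were above 100, at least 2.58-fold over CD30high Th17 cells, but this array did not reach 300 and no call was made. Havcr2 (1451584_at), a receptor known from Th1 cells, had 34.1 and 35.8 in CD30high and CD30low Th17 cells and 114 and 94.8 in CD30high and CD30low Th1 cells. Only the CD30high Th1 array was above 100, so no fold is given between the Th17 arrays.

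To ask how the receptors differed between the lineages, Th17 cells were compared with Th1 cells within each CD30 sort. The lineages also differed in sex-linked transcripts. Eif2s3y, on the Y chromosome, was at 9.39 and 1.41 in CD30high and CD30low Th17 cells and at 1640 and 1784 in CD30high and CD30low Th1 cells, whereas Xist, which is expressed from the inactive X chromosome, was bright on all 4 arrays, at 22613, 22350, 16222 and 14620 in CD30high Th17, CD30low Th17, CD30high Th1 and CD30low Th1 cells. No array was given a sex from these values, and the lineage and the makeup of the material by sex cannot be told apart. Among CD30high cells Btla was 3.43-fold higher in Th17 than in Th1 cells and was the only 1 of 5 members called higher, with 0 called lower. Among all 7979 genes, 4.98% were called higher and 6.86% lower. Among CD30low cells Ctla4 was 2.90-fold lower in Th17 than in Th1 cells and was the only 1 of 5 members called lower, with 0 called higher. There 3.53% of 7857 genes were called higher and 5.83% lower. The median log2 ratio of the 5 members was -0.06 among CD30high cells, against 0.04 for all genes, and -0.76 among CD30low cells, against 0.00 for all genes.

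The receptors thus stood closer to their Th1 levels in CD30high than in CD30low Th17 cells in the case of Ctla4 and Cd28, and farther from them in the case of Btla. For Ctla4 the log2 ratio of Th17 over Th1 was -0.42 among CD30high and -1.54 among CD30low cells. For Cd28 it was -0.06 and -0.76, and for Btla 1.78 and 0.44, in the same order. Pdcd1 had nearly the same ratio in both sorts, with log2 values of -0.89 and -0.90, short of the limit of 2-fold. Icos had log2 ratios of 0.18 and -0.05 by its brightest probe set. These comparisons share their arrays with the CD30 comparisons and are the same 4 values seen from the other side.

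**Figure D3:**
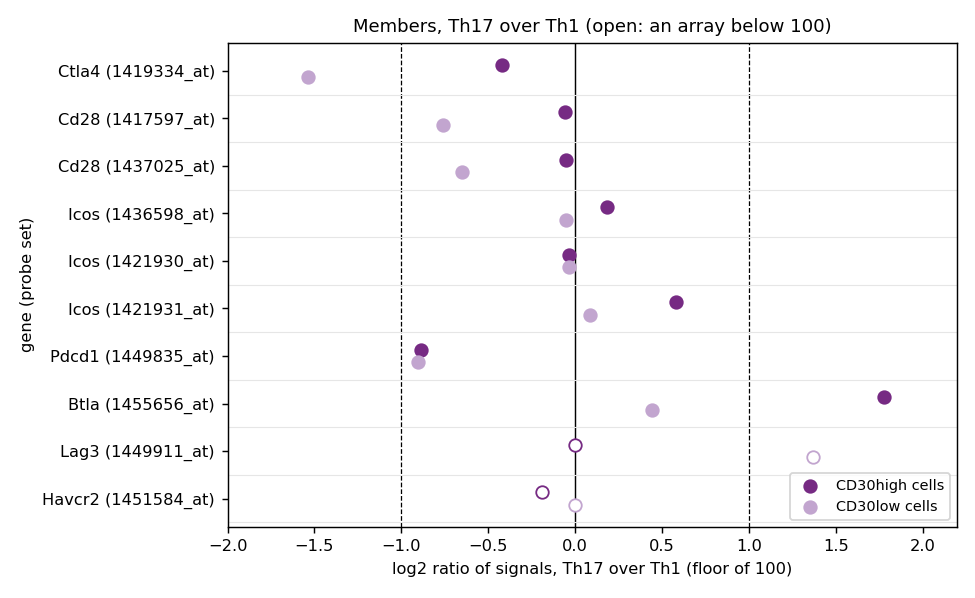
Log2 ratio of signals, Th17 over Th1 (x axis), for each probe set of the members (y axis) among CD30high and CD30low cells, 1 array per population. Dashed lines mark 2-fold and open circles a ratio in which an array was below 100. Btla among CD30high cells lies at 1.78 and Ctla4 among CD30low cells at -1.54, while the points of Pdcd1 nearly coincide at -0.89 and -0.90.

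The pathways around the receptors were described with lists of genes, chosen with earlier results of these data known. Of 13 ligands, 12 were named, 7 of these stayed below 300 on all arrays, and none was called between the CD30 sorts. The median log2 ratio of those at 300 or more was -0.32 in Th17 cells (5 genes) and 0.13 in Th1 cells (4 genes). Lgals9, which encodes galectin-9, had signals of 350.4 in CD30high Th17, 649.8 in CD30low Th17, 452.5 in CD30high Th1 and 526 in CD30low Th1 cells. Pvr, the gene of the TIGIT ligand CD155, had 827, 1145, 1212 and 987, and Cd80 had 311, 306, 302 and 239.9, in the same order. Another probe set of Cd80 had 320.0, 173.8, 237.8 and 103.0, higher in the CD30high array of each pair, but neither pair met the fold rule. Dim ligands differed in direction in the Th17 pair. Cd86 had 237.5 in CD30high and 96.42 in CD30low cells. Icosl, the gene of the ICOS ligand, had 85.34 and 121.8, and Tnfrsf14, the gene of HVEM, had 50.58 and 128.2. Pdcd1lg2, which encodes PD-L2, was higher in Th17 than in Th1 cells, by 2.23-fold among CD30high and 3.20-fold among CD30low cells.

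Cd96, which binds CD155 like TIGIT, had signals of 104 in CD30high Th17, 741 in CD30low Th17, 2137 in CD30high Th1 and 3593 in CD30low Th1 cells. It was lower in CD30high than in CD30low Th17 cells by 7.16-fold, and the same comparison in Th1 cells gave 1.68-fold, short of the limit. It was the only called gene of the 4 listed receptors that share ligands with TIGIT or BTLA, of which 3 were named and Cd226 and Cd160 stayed below 100 on every array.

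Among other inhibitory receptors, 12 of 14 were named and 5 reached 300 in the Th17 pair. Cd200 was 2.34-fold higher in CD30high than in CD30low Th17 cells, with signals of 1099 against 469. It encodes a glycoprotein that signals to CD200R on myeloid cells, so the gene called higher was a ligand and not a receptor. None was called lower, although Vsir, the gene of VISTA, had 1820 in CD30high and 3629 in CD30low Th17 cells, just short of the limit, and 660.2 and 1622 by its other probe set. The medians of this list were -0.50 in Th17 and 0.02 in Th1 cells, where 0 genes were called. Of 9 costimulatory receptors outside the TNF receptor family, 8 were named, and 0 of the 6 at 300 were called higher and 2 lower in CD30high Th17 cells. These were the SLAM family genes Slamf6, with 148 against 695, and Cd84, with 456 against 974. Slamf1, of the same family, went the other way, with 5998 against 3883 by its brightest probe set, and was not called. Its dimmer probe sets had 1934 against 1274 and 1388 against 678, the last past the limit. Their list had a median of -0.40 in Th17 cells and of -0.23 in Th1 cells, where none was called.

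The signalling partners of the receptors were read next. Of 10 genes at 300 for PI3 kinase subunits and adaptors that act below CD28 and ICOS, 1 was called lower in CD30high Th17 cells, the Src kinase gene Fyn, with 983 in CD30high and 2602 in CD30low cells. None was called in Th1 cells, and the medians were -0.09 in Th17 and -0.05 in Th1 cells. The PI3 kinase subunit gene Pik3cd was not called by its brightest probe set, with 10289 in CD30high and 11363 in CD30low Th17 cells. Dimmer probe sets of Pik3cd had 1257 against 2745, 344 against 750 and 116 against 421 in this pair, past the limit. Its others had 107 against 125 or were below 100. The count for this list thus depends on the probe set taken for Pik3cd. Of 8 phosphatases, 0 were called in Th17 cells and 1 was called higher in CD30high Th1 cells. This was Inpp5d, the gene of the lipid phosphatase SHIP-1, with 1131 in CD30high and 557.5 in CD30low Th1 cells, and its other probe set had 223 and 172. The median log2 ratios were -0.08 and -0.11. Ptprc was not called between the CD30 sorts by its brightest probe set, with 13545 in CD30high and 24422 in CD30low Th17 cells. Its other probe set had 609 against 1849 in this pair, past the limit. Between the lineages Ptprc was called lower in Th17 cells among CD30high cells, by 2.27-fold with the brightest probe set. Ptpn6 and Ptpn11, which encode the phosphatases SHP-1 and SHP-2, were not called in any comparison.

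In the list for CTLA-4 traffic, Trat1 had a pattern between the sorts like that of Ctla4. It encodes the transmembrane adaptor TRIM, which has been reported to help CTLA-4 reach the cell surface. Its signals were 1245 in CD30high Th17, 505 in CD30low Th17, 5881 in CD30high Th1 and 4814 in CD30low Th1 cells. It was 2.47-fold higher in CD30high than in CD30low Th17 cells with a ratio of 1.22-fold in Th1 cells, and its other probe set had 452 against 260 in the Th17 pair, or short of 2-fold. The lineages differed more for Trat1 than for Ctla4, by 4.72-fold among CD30high and 9.53-fold among CD30low cells, lower in Th17 cells in both. The other 8 genes at 300, among them Lrba, which protects CTLA-4 from degradation, were not called between the CD30 sorts. The medians were 0.05 in Th17 and 0.03 in Th1 cells.

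Transcription factors known to act on checkpoint genes were split in Th17 cells, with 1 called higher and 3 lower of 11 at 300 (median log2 ratio 0.07). Irf4 was higher, with 7634 in CD30high and 2929 in CD30low cells, while its dim second probe set had 212 and 145. Lower in CD30high Th17 cells were Foxo1, with 767 against 2192, Nfatc1, with 693.5 against 1418, and Nr4a3, with 28.3 against 331. For Nfatc1 another probe set had 729.9 and 944, so its call rests on 1 probe set. The call of Nr4a3 also rests on 1 probe set, since its others were below 100 on every array. In Th1 cells 0 of 10 were called (median log2 ratio 0.07). Batf had signals of 3266 in CD30high Th17, 2419 in CD30low Th17, 1835 in CD30high Th1 and 2342 in CD30low Th1 cells, and was not called in any comparison.

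**Figure D4:**
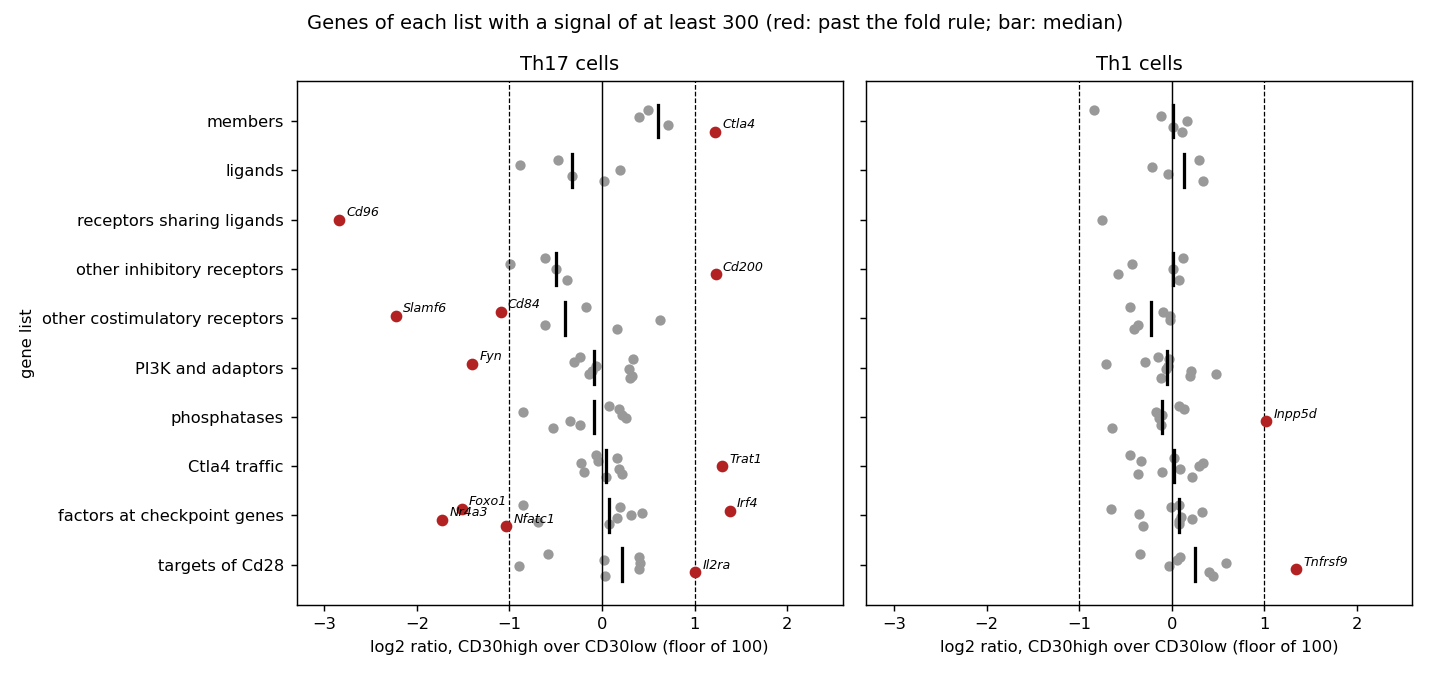
The x axis gives the log2 ratio between CD30high and CD30low cells for genes of each list (y axis) with a signal of at least 300 in the pair, in Th17 and Th1 cells, 1 array per population. Red points are past the fold rule, grey points are not, and black bars are medians of at least 3 genes. The median of the members is 0.61 in Th17 and 0.01 in Th1 cells, and Cd96, Slamf6 and Foxo1 lie at -2.84, -2.23 and -1.51 in Th17 cells.

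Markers of other cells were read beside these values. Ctla4 is known to be high in regulatory T cells. Of 6 regulatory T cell markers at 300 in the Th17 pair 5 (Ikzf2, Tnfrsf18, Nrp1, Gpr83 and Izumo1r) were called lower in CD30high cells and 1, Il2ra, was called higher (list median -1.71). The part of such cells in the Ctla4 ratio was not tested. Foxp3, their defining factor, was at 46.1 in CD30high Th17, 110 in CD30low Th17, 95.3 in CD30high Th1 and 24.6 in CD30low Th1 cells. In Th1 cells 0 of 5 were called (median -0.28). All 8 T cell markers were at 300 or more with none called in any comparison, and their median log2 ratio was -0.47 in Th17 and -0.30 in Th1 cells. Th1 markers were lower in Th17 than in Th1 cells for 6 of 8 genes among CD30high and 6 of 6 among CD30low cells. Among CD30high cells the other 2 were Hlx, called higher, and Il12rb2, not called. Between the CD30 sorts of Th17 cells 1 of 5 was called higher, Hlx, and 1 lower, Il18rap (median -0.61), and in Th1 cells 0 of 7 (median -0.14). Of 8 Th17 markers 4 were named, and the 3 at 300, Il17a, Rora and Ccr6, were all called higher in CD30high Th17 cells (median 1.38). Il17a had 14443 in CD30high and 1398 in CD30low Th17 cells and was below 100 in both Th1 arrays.

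Of the 5 named neutrophil markers, S100a8 and S100a9 were called lower in CD30high than in CD30low Th17 cells. The summed signal of the 5 was 1937 in CD30high Th17, 7334 in CD30low Th17, 198 in CD30high Th1 and 100.5 in CD30low Th1 cells, a sum that follows those 2 genes in the Th17 arrays, while Elane, Mpo and Csf3r were below 100 on every array. The lower Ctla4 and Cd28 signals thus lay in the array with the highest neutrophil sum, and its part in those ratios was not tested. All 8 T cell markers had higher signals in that array than in CD30high Th17 cells. Markers of B cells (5 named), dendritic cells (5 named) and erythroid cells (2 named) were below 300 on all arrays, and of 7 macrophage markers only Fcgr3 reached 300, in the Th1 arrays. Of 7 natural killer and CD8 markers, Klrd1 was called lower in CD30high Th17 cells, and Klrd1 and Klrk1 were called lower in Th17 than in Th1 cells of both sorts. Follicular helper markers, of which 4 were at 300 in the Th17 pair, had 1 called lower, Sh2d1a, and a median of 0.42. Il21 had 6316 in CD30high and 3174 in CD30low Th17 cells, just short of the limit. Its other probe set had 2039 against 501. Bcl6 had 480 against 271 and Pou2af1 337 against 335, and neither was called.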

How the data were processed

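RNA of 4 sorted populations, 1 array each, was labelled with biotin for 3-prime expression arrays. The intensity values deposited by the authors are linear probe set signals, credited to the GeneChip Operating Software in the methods and to Affymetrix Expression Console in the submitters' processing notes; no version or summary algorithm is stated. Trimmed by 2% at each end, the mean signal was 497 on every array, so the arrays appear to have been scaled to 1 target, which hides a change common to most genes. Sample titles gave the groups, and detection calls were not used.

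Probe sets were named from the platform annotation (34945 with 1 symbol, 34741 of them updated through gene identifiers, 932 with several symbols and 9160 unnamed). The brightest probe set by mean signal stood for each gene. The rule of 2-fold and 300 follows the study's stated signal limit. Members, lists and limits were chosen with earlier results of these data known. The text names all members, every listed gene called between CD30 sorts and otherwise up to 3 per list with the largest ratios. Pdcd1lg2, Cd86, Icosl, Tnfrsf14, Vsir, Slamf1, Lrba, Batf, Ptpn6, Ptpn11, Pik3cd, Ptprc and the marker genes named singly were added after their values were seen. Tested alternatives were 11 settings of scaling, floor, limits and probe sets. The software was numpy 2.4.6, pandas 2.3.3 and matplotlib 3.10.9 under Python 3.11.15. Precision is limited by having 1 array per population.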

Additional observations from a re-analysis of the deposited data

Results flagged for a closer look

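The CD30high over CD30low ratio of Btla ran in opposite directions in the lineages, with a log2 ratio of 0.50 in Th17 cells and of -0.84 in Th1 cells. Each ratio rests on 1 pair of arrays and 1 probe set, neither passed the fold rule, and the difference between them was not tested.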

How the results depend on the processing

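Across the 11 alternatives no call of a member changed direction. The calls of Ctla4 between the CD30 sorts of Th17 cells, of Ctla4 between lineages among CD30low cells, and of Btla between lineages among CD30high cells were also made under both other scalings. The other floors, signal limits and choices of probe set could not change them, since each gene has 1 probe set with all signals above those limits. The limit of fold mattered. At 1.5-fold the count of members was 2 in the CD30 comparison of Th17 cells (Ctla4 and Cd28), 1 in that of Th1 cells (Btla, lower), 2 for the lineages among CD30high cells (Btla and Pdcd1) and 3 among CD30low cells (Ctla4, Cd28 and Pdcd1). At 3-fold it was 0 in the CD30 comparison of Th17 cells and 0 for the lineages among CD30low cells. With a signal limit of 200, or none, Lag3 was added as lower in CD30high Th17 cells (2 members) and as higher in Th17 cells among CD30low cells (2 members). The Lag3 difference of the CD30 log2 ratios, Th17 minus Th1, was -1.37, but -3.26 with a floor of 50 and -0.37 with a floor of 200, since 3 of its 4 signals lie below 100. The other such differences moved by less than the scatter between probe sets, 0.30. No paired analysis was possible because no label pairs the arrays and each group has 1 array. Among all genes, 1.5-fold gave 741 higher and 710 lower calls in CD30high Th17 cells (307 and 285 as reported), 316 and 279 in CD30high Th1 cells (62 and 38), 1084 and 1185 in Th17 over Th1 among CD30high cells (397 and 547), and 921 and 1043 among CD30low cells (277 and 458). At 3-fold these were 124 and 131, 10 and 6, 154 and 261, and 102 and 182. A signal limit of 200, or none, gave 114 higher and 57 lower in CD30high Th1 cells. The mean of all probe sets gave 199 higher in CD30high Th17 cells, 41 higher and 20 lower in CD30high Th1 cells, and 244 and 179 higher in Th17 cells among CD30high and CD30low cells. Dim signals limit Pdcd1, Lag3 and Havcr2, and single arrays limit every ratio.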

Other observations

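Genes commonly induced by CD28 costimulation were compared between the CD30 sorts. Of 8 at 300, 1 was called higher in CD30high Th17 cells, Il2ra, the alpha chain of the IL-2 receptor, with 15524 against 7707. In Th1 cells 1 of 8 was called, Tnfrsf9, the gene of 4-1BB, with 2182 in CD30high and 862 in CD30low cells. Another probe set of Tnfrsf9 had 1392 against 741 in this pair, short of 2-fold, so its call rests on 1 probe set. The median log2 ratios were 0.22 in Th17 and 0.25 in Th1 cells. Il2 was at 46.5 and 149 in CD30high and CD30low Th17 cells and below 100 in Th1 cells.

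For the members whose signals spanned at least 2-fold, the 3 most similar profiles over the 4 arrays were sought among 8226 other genes by the root mean square difference of centred log2 signals. Those nearest to Ctla4 were Fndc3a (0.09), Hsd17b11 (0.10) and Rgs2 (0.13). Those nearest to Btla were Fastk (0.15), Zmiz2 (0.16) and Smad5 (0.17), and those nearest to Pdcd1 were Map1lc3a (0.03), H2ac19 (0.03) and Rap2a (0.04). With 4 arrays and this many genes, close profiles can arise easily, and nothing is drawn from them.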
